A study of Mus musculus with 4 samples.

Results

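The actins are the filament-forming proteins of the cytoskeleton and of muscle, and the testis adds actin-like relatives of its own. Described here are 10 genes of this family among the 22808 gene identifiers of the table, chosen by family name with their RPKM in both libraries already known, so that the differences below are a description: the muscle actins Actg2, Acta2, Acta1 and Actc1, the cytoplasmic actins Actb and Actg1, and the actin-like genes Actl7a, Actl7b, Actl9 and Actrt2. The question set for them was whether the lower Actg2 RNA of Piwil1-/- testis goes with the muscle actins or with the actin-like genes of spermatids. RNA depleted of ribosomal RNA was sequenced with strand information from testes of Piwil1-/- and of Piwil1+/- mice, both at postnatal day 23, in 1 library each. The heterozygotes are the control, so both groups carry the Piwil1 mutant allele. The sources used here do not say how that allele was made, which strain these mice were or how many animals a library holds. PIWIL1, also called MIWI, is the PIWI protein that binds pachytene piRNAs in meiotic and postmeiotic male germ cells. Small RNAs bound to it were sequenced from testes of WT C57BL/6J mice at 10 weeks, in 2 libraries.

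Smooth muscle gamma actin, the product of Actg2, and smooth muscle alpha actin, the product of Acta2, serve the contractile cells of gut, vessels and ducts, and in the testis Acta2 marks the peritubular myoid cells around the seminiferous tubules. Acta1 and Actc1 encode the skeletal and cardiac actins, and Actb and Actg1 the actins found in nearly every cell. Actl7a, Actl7b, Actl9 and Actrt2 are transcribed in haploid male germ cells. ACTL7A, ACTL9 and ACTRT2 belong to the perinuclear theca of the sperm head, the rigid shell between acrosome and nucleus, and mice or men that lack ACTL7A or ACTL9 make sperm that fail to activate eggs.

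The promoters of the actin-like genes are shown because these 4 genes differed between the genotypes by unequal amounts. The RefSeq promoter table (GRCm38.p6, the assembly called mm10) matched 8 of the 10 genes, all but Actg2 and Actb. Shown are the 250 bases before the annotated start of each actin-like gene, 5′ to 3′ in the gene's direction. Capitals mark TGATGTCA or, read on the other strand, TGACATCA, which differs in a single base from TGACGTCA, the cAMP response element bound by the spermatid transcription factor CREM.
Actrt2, chr4:154667868-154668117, strand -: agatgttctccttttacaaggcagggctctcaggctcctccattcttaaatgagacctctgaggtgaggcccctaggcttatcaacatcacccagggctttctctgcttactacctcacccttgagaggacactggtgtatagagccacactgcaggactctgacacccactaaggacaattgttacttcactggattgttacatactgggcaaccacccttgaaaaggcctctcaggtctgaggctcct
Actl9, chr17:33432649-33432898, strand +: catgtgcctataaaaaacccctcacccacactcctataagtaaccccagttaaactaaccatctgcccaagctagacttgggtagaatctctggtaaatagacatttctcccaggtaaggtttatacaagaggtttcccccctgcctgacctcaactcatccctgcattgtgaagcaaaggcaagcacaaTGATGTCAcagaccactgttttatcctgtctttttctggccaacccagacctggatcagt
Actl7a, chr4:56743172-56743421, strand +: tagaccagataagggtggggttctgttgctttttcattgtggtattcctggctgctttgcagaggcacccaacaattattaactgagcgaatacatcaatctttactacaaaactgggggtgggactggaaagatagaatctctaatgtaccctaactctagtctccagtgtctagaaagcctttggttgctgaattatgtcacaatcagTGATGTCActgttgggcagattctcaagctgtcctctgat
Actl7b, chr4:56741426-56741675, strand -: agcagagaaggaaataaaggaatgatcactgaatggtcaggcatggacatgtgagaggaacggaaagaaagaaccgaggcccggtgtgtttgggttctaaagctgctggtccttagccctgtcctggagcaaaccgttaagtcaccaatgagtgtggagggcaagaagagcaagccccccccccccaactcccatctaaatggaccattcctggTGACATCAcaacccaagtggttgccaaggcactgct

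The TGATGTCA octamer was noticed on reading these sequences and was then searched on both strands. It lay 60 to 53 bases before the start of Actl9, 40 to 33 before Actl7a and, on the other strand, 36 to 29 before Actl7b, and these letters were not in the Actrt2 window. Of all 32851 RefSeq promoter windows of the same length, 2.93% held it. Because the octamer was picked from the windows shown, nothing is read from that share. The full element TGACGTCA was in 1.55% of windows and its core TGACG, which the full element contains, in 17.8%, and none of the 8 windows held either. A CArG box, the sequence bound by serum response factor, was in the windows of Acta1, Actc1 and Actg1 and in 1.47% of all windows. Only its strict form, with A or T alone between CC and GG, was searched, so other forms would be missed. TATAAA was in the windows of Acta1 and Actl9 and in 12.4% of all. The octamer thus stood in Actl9, Actl7a and Actl7b, whose log2 differences, given below, were -0.97, -0.86 and -0.15, and not in Actrt2, at -1.49. With a pseudocount of 0.1 RPKM Actl9 was past 2-fold. Whether the octamer goes with the differences was not tested. A match of letters is a description and not a binding site.

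The libraries are described first as a whole. RPKM values, which divide reads by the length of a gene and by the size of the library, corresponded to totals of 100254357 reads in Piwil1-/- and 104014686 reads in Piwil1+/-. Piwil1 was listed at 0 in the Piwil1-/- library and was at 26.2 RPKM in the Piwil1+/- library, as the labels say. Each of the Sertoli, Leydig, smooth muscle and germ cell lists held detected markers, as testis RNA should show. Not every listed marker was detected in both libraries. The text calls a gene lower or higher when log2 (RPKM + 1) differed by 1 or more, which is 2-fold on that scale, among the 9951 genes that reached 1 RPKM in at least 1 library. That scale understates the change of low genes. With 1 library per genotype there is no replicate check, no p-value and no spread between animals for any difference below. Intervals are exact (Clopper-Pearson) 95% binomial intervals of the read numbers behind an RPKM ratio and describe counting error alone, since reads copied by PCR do not stand for separate molecules.

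Of the 10 genes, 8 passed the level filter, and 2 of them, Actg2 and Actrt2, were at least 2-fold lower in Piwil1-/- testis, where 1.96% of all tested genes were. None was at least 2-fold higher, against 0.231% of all tested genes. With a pseudocount of 0.1 in place of 1 Actl9 joined them, making 3 lower, where 3.34% of all tested genes were. Because the genes were listed with this comparison known, nothing is read from that count. The median log2 difference of the 8 was -0.50, against 0.0055 over all 9951 genes. In bulk testis RNA, fewer cells of a type and less RNA per cell cannot be told apart.

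**Figure D1:**
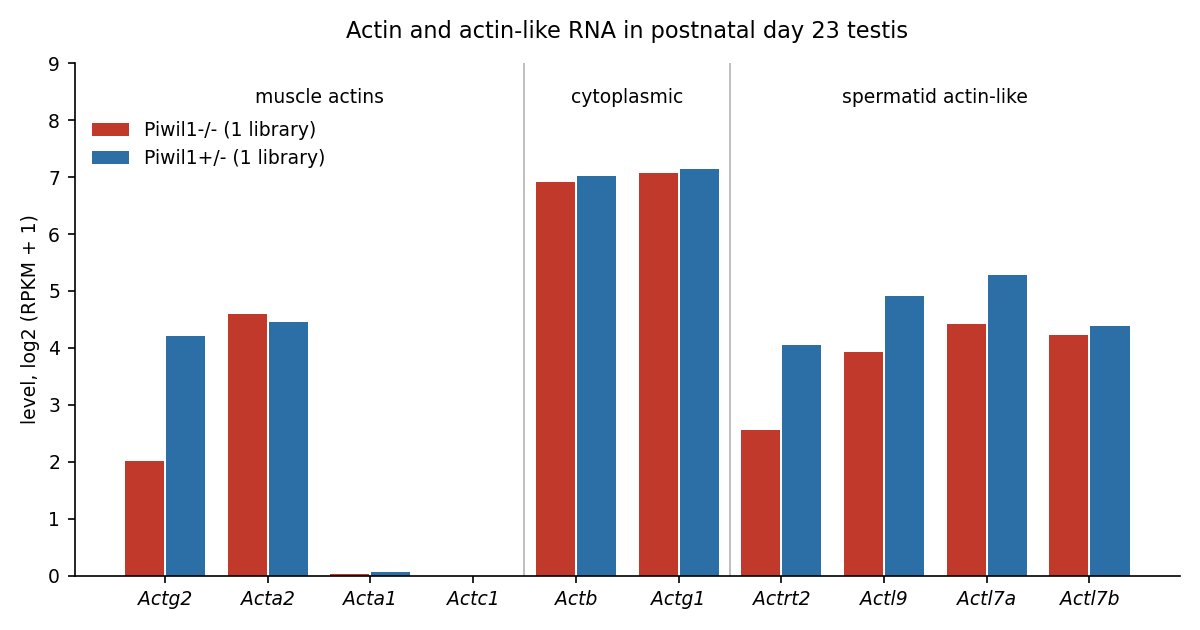
Level of each gene as log2 (RPKM + 1) in the Piwil1-/- library (red) and the Piwil1+/- library (blue), 1 library each and so without error bars. Actg2 stands at 3.04 RPKM in Piwil1-/- and 17.6 in Piwil1+/-, while its neighbour in the plot, Acta2, is at 23.3 RPKM in Piwil1-/- and 21.0 in Piwil1+/-.

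Actg2, at chromosome 6, 83512909 to 83536251, showed the widest difference of the 10. Piwil1-/- testis held 3.04 RPKM of it, against 17.6 RPKM in Piwil1+/- testis. The RPKM ratio was 0.173 (interval 0.159 to 0.188), from 625 reads in Piwil1-/- and 3750 in Piwil1+/-, the smallest numbers that fit. On the log2 (RPKM + 1) scale it was lower by 2.20 (log2 difference -2.20), the 8th lowest of the 9951 genes. Acta2 (chromosome 19, 34240336 to 34255585) did not share that difference. Its level was 23.3 RPKM in Piwil1-/- and 21.0 RPKM in Piwil1+/- testis, a ratio of 1.11 (interval 1.03 to 1.20), above 1 by more than counting error but far inside 2-fold. Actg2 RNA was thus at 0.131 of the Acta2 level in Piwil1-/- testis and at 0.839 of it in Piwil1+/- testis, both taken as RPKM ratios.

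The striated muscle actins were all but undetected. Acta1 was at 0.0251 RPKM in Piwil1-/- and 0.0484 RPKM in Piwil1+/- testis, which at the smallest fit is 1 read in Piwil1-/- and 2 in Piwil1+/-, and the interval of its ratio ran from 0.00879 to 9.96. Actc1 was listed at 0 in both libraries. Acta2 was therefore the only other muscle actin that could be set beside Actg2. The coding sequences of the muscle and cytoplasmic actins are close to one another, and the sources used here do not say how reads that fit several of them were assigned, so the split of reads between these genes is uncertain. Summed over the 4 muscle actins, the level was 26.3 RPKM in Piwil1-/- and 38.6 RPKM in Piwil1+/- testis.

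Both cytoplasmic actins were the most abundant of the 10 in either library. Actg1 was at 133 RPKM in Piwil1-/- and 140.1 RPKM in Piwil1+/- testis, a ratio of 0.951 (interval 0.919 to 0.985). Actb was at 119 RPKM in Piwil1-/- and 129 RPKM in Piwil1+/- testis, a ratio of 0.927 (0.900 to 0.954). Both differences exceed counting error and are small beside that of Actg2. Together these genes made up 75.1% of the RPKM of the 10 in Piwil1-/- and 65.6% in Piwil1+/- testis.

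All 4 actin-like genes of spermatids had lower values in Piwil1-/- testis, by unequal amounts. Actrt2 (chromosome 4, 154666428 to 154667867) had a level of 4.88 RPKM in Piwil1-/- and 15.5 RPKM in Piwil1+/- testis, a ratio of 0.314 (interval 0.285 to 0.346) and a log2 difference of -1.49. Actl9 (chromosome 17, 33432899 to 33434268) had a level of 14.3 RPKM in Piwil1-/- and 29.03 RPKM in Piwil1+/- testis. Its RPKM ratio of 0.493 (0.466 to 0.522) lies just past 2-fold, while its log2 (RPKM + 1) difference of -0.97 lies just short of it, so the call turns on the pseudocount. Actl7a (chromosome 4, 56743422 to 56744925) had a level of 20.5 RPKM in Piwil1-/- and 37.8 RPKM in Piwil1+/- testis, a ratio of 0.541 (0.516 to 0.566).

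Actl7b (chromosome 4, 56740005 to 56741425) was the exception. Its level was 17.8 RPKM in Piwil1-/- and 19.8 RPKM in Piwil1+/- testis, a ratio of 0.896 (0.847 to 0.949). Actl7b and Actl7a are intronless neighbours read in opposite directions, with annotated starts 1997 bp apart. Actl7a was at 1.15 times the Actl7b level in Piwil1-/- testis and at 1.91 times in Piwil1+/- testis. The median log2 difference of the 4 was -0.91, and their summed level was 57.4 RPKM in Piwil1-/- and 102 RPKM in Piwil1+/- testis.

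**Figure D2:**
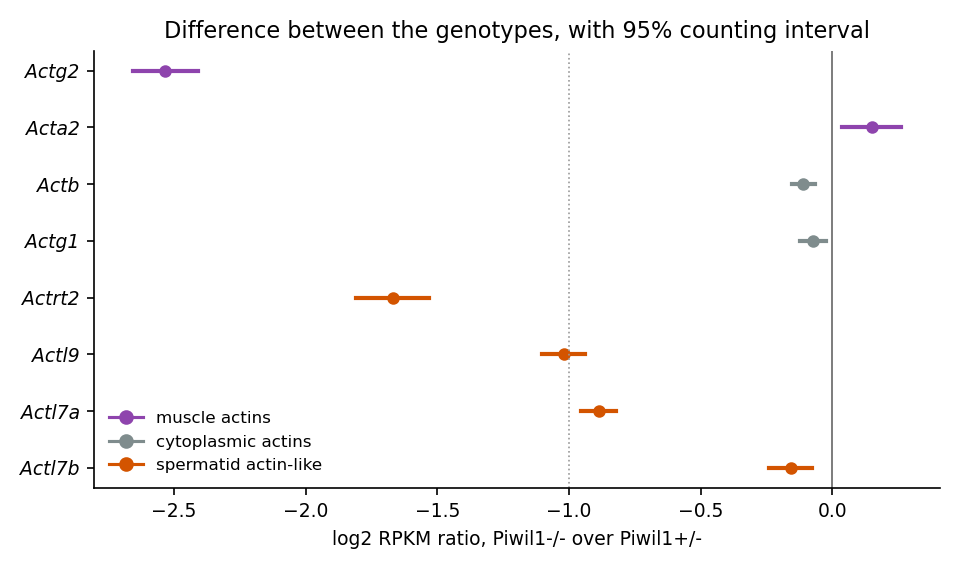
RPKM ratio of Piwil1-/- over Piwil1+/- on a log2 scale for the 8 genes that passed the level filter, with bars for the 95% counting interval and a dotted line at 2-fold lower. Actg2, at a ratio of 0.173, lies left of Actrt2 at 0.314, Actl9 at 0.493 and Actl7a at 0.541, while Acta2, at 1.11, lies right of the line of equal level.

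Set beside the other members, Actg2 was 2.34 below Acta2 and 0.71 below Actrt2 in log2 difference. Its RPKM ratio between the genotypes was lower than that of each actin-like gene. In level it was at 0.624 times Actrt2 in Piwil1-/- testis and at 1.13 times Actrt2 in Piwil1+/- testis, both as RPKM. From highest to lowest RPKM, the order in Piwil1-/- testis was Actg1, Actb, Acta2, Actl7a, Actl7b, Actl9, Actrt2, Actg2 and Acta1, with Actc1 at 0. In Piwil1+/- testis it was Actg1, Actb, Actl7a, Actl9, Acta2, Actl7b, Actg2, Actrt2 and Acta1, so that Actg2 stood above Actrt2 there. The 5 genes nearest to Actg2 over log2 (RPKM + 1) in the 2 libraries, by Euclidean distance, were Iqcf3 (3.96 RPKM in Piwil1-/- and 16.3 in Piwil1+/-, distance 0.312), Fam71f2 (distance 0.318), Tmigd3 (0.328), Calr3 (0.376) and Cst8 (0.423). Their log2 differences ran from -1.85 in Cst8 to -1.72 in Calr3, and that of Actg2 was lower. Because these genes were picked by their levels in both libraries, nothing is read from how near their differences are.

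**Figure D3:**
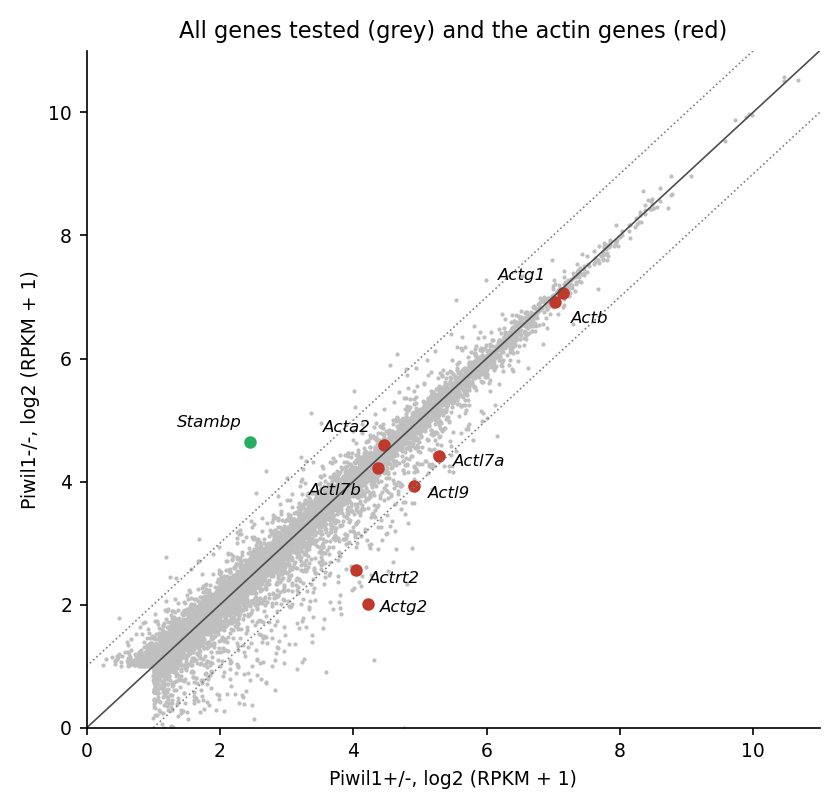
Level of the 9951 tested genes (grey) as log2 (RPKM + 1), Piwil1-/- on the vertical and Piwil1+/- on the horizontal axis, with the 8 tested actin genes in red and Stambp in green; solid line, equal level, dotted lines, 2-fold. Actg2 (log2 difference -2.20) and Actrt2 (-1.49) lie below the lower dotted line, and Stambp (2.19) lies above the upper one.

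The gene next to Actg2 differed by as much the other way. Stambp, for a deubiquitinase of endosomes, spans 83543206 to 83575826 of chromosome 6, and 6955 bp separate it from Actg2. Its level was 24.0 RPKM in Piwil1-/- and 4.47 RPKM in Piwil1+/- testis, a log2 difference of 2.19 and the highest of all tested genes, beside -2.20 for Actg2. The Stambp level was 7.89 times that of Actg2 in Piwil1-/- testis and 0.254 times that of Actg2 in Piwil1+/- testis. Dguok, a mitochondrial deoxynucleoside kinase gene 5940 bp away on the other side of Actg2, was at 2.05 RPKM in Piwil1-/- and 1.90 RPKM in Piwil1+/- testis, a ratio of 1.08 (0.952 to 1.23).

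Of 12 genes of the table whose spans start within 250 kb of the start of Actg2, Actg2 included, 6 passed the level filter. Mthfd2 (log2 difference 0.02) and Mob1a (0.04) were level between the libraries, and Ankrd53 was at 1.76 RPKM in Piwil1-/- and 3.92 RPKM in Piwil1+/- testis (log2 difference -0.83). As an RPKM ratio Ankrd53 was at 0.450 (0.402 to 0.503), so its call turns on the pseudocount. Bola3, Tet3, Vax2 and Atp6v1b1 were below 1 RPKM in both libraries, and Clec4f and Cd207 were listed at 0 in both. Of these low genes Atp6v1b1 had a ratio of 0.405 (0.306 to 0.532). Bola3, Tet3 and Vax2 had ratios above 1, with intervals that took in 1. Among 5485 pairs of neighbouring protein-coding genes that both passed the filter, Actg2 and Stambp were the 1 pair in which a gene at least 2-fold lower stood beside one at least 2-fold higher, while in 7 pairs both genes were at least 2-fold lower and in 0 pairs both were higher. Over all tested genes 1.96% were lower and 0.231% higher. Pairs were counted with a pseudocount of 1 only and with the difference of Actg2 already known, so nothing is read from that count. RefSeq also places Gm38844, a long non-coding RNA, from 83531753 to 83547244, a span that overlaps both Actg2 and Stambp. It was not analysed here. Whether the counts of these neighbours share reads was not tested.

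**Figure D4:**
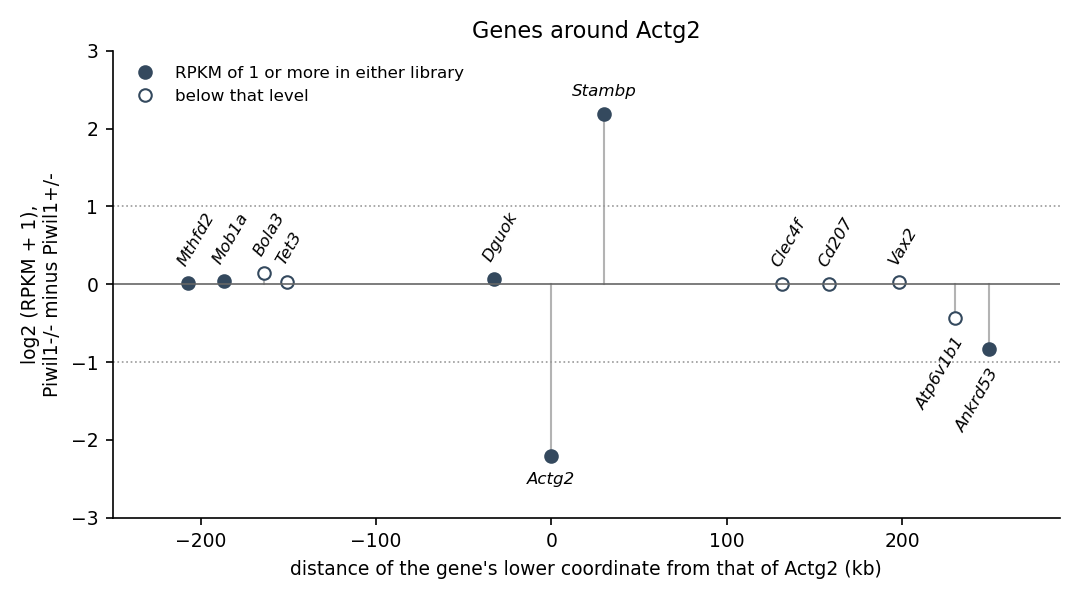
Difference in log2 (RPKM + 1), Piwil1-/- minus Piwil1+/-, of the 12 genes of the table around Actg2, by distance of each gene's lower coordinate from that of Actg2 in kb; open circles are genes below an RPKM of 1 in both libraries. On this scale Actg2 (-2.20) and Stambp (2.19) stand apart from the genes around them, of which Ankrd53 (-0.83) is the next largest. As RPKM ratios of Piwil1-/- over Piwil1+/-, Ankrd53 was at 0.450 and Atp6v1b1, an open circle, at 0.405.

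Other genes of the actin-related families included testis genes that were lower. This list and those below were chosen with earlier results of these data known, so their counts are a description. Of 16 listed, 12 passed the filter, with a median log2 difference of -0.11. Of these 12, 2 were at least 2-fold lower, where 1.96% of all tested genes were. Both are testis genes of the same subfamilies as the members. Actrt3, whose protein binds the testis profilin PFN3 in mouse spermatids, was at 1.62 RPKM in Piwil1-/- and 5.21 RPKM in Piwil1+/- testis, a ratio of 0.310 (0.242 to 0.394). Actl11 was at 1.84 RPKM in Piwil1-/- and 5.16 RPKM in Piwil1+/- testis, a ratio of 0.357 (0.327 to 0.390). Actrt1, a perinuclear theca partner of ACTRT2, was at 1.67 RPKM in Piwil1-/- and 2.94 RPKM in Piwil1+/- testis, with a log2 difference of -0.56. The other actin-related genes lay within 2-fold. Actr6, of chromatin remodelling complexes, had a log2 difference of -0.18, the dynactin subunit Actr1a one of -0.01, the chromatin remodelling subunits Actl6a and Actr8 -0.02 and 0.07, and Actr3, of the Arp2/3 complex, 0.43, at 40.5 RPKM in Piwil1-/- and 29.7 RPKM in Piwil1+/- testis.

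Smooth muscle and peritubular myoid genes, which myoid cells express with Acta2, stayed close to equal level. Of 19 listed, 11 passed the filter, and the median log2 difference was 0.03. None was at least 2-fold lower or higher, where 1.96% of all tested genes were lower and 0.231% higher. Myl9, a myosin light chain, and Cald1, caldesmon, were highest at 0.22 and 0.21, followed by Ptch1 at 0.15 and Tagln, transgelin, at 0.05. The lowest were Tpm2 and Tpm1, tropomyosins, at -0.15 and -0.05, Cnn1, calponin, at -0.11, and the integrin gene Itga8 at -0.02. Myh11, the smooth muscle myosin heavy chain (picked after its values were seen), was at 4.88 RPKM in Piwil1-/- and 4.84 RPKM in Piwil1+/- testis. The summed level of the list was 54.9 RPKM in Piwil1-/- and 53.2 RPKM in Piwil1+/- testis, with Mustn1 at 0 in both. Of 20 striated muscle genes, 3 passed the filter, with log2 differences of -0.19 for Tnnt2, -0.06 for Tnni3 and 0.03 for Ttn.

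Genes of the sperm head and of its actin cytoskeleton included 5 that were at least 2-fold lower. Of 26 listed, 23 passed the filter and 5 were at least 2-fold lower, where 1.96% of all tested genes were. None was at least 2-fold higher, against 0.231% of all tested genes, and 18 lay below 0, where 48.8% of all did. The median log2 difference was -0.51. The 5 were Spem1, needed to shed sperm cytoplasm (0.930 RPKM in Piwil1-/- and 7.92 in Piwil1+/-), Fscn3, a testis fascin that belongs to a family of actin-bundling proteins (0.453 in Piwil1-/- and 4.04 in Piwil1+/-), Iqcf1 (1.76 in Piwil1-/- and 5.85 in Piwil1+/-), Fam209, needed for acrosome formation (6.92 in Piwil1-/- and 18.2 in Piwil1+/-), and Ccin, which encodes calicin, an actin-binding protein of the perinuclear theca (3.04 in Piwil1-/- and 8.25 in Piwil1+/-). The highest were Gopc and Pick1, both of the vesicle traffic that builds the acrosome, at 0.19 and 0.06, Actn3 at 0.07 and Spata16, also of acrosome formation, at 0.05. Picked after their values were seen, Capza3, the testis subunit of the actin capping protein, was at 18.0 RPKM in Piwil1-/- and 36.2 RPKM in Piwil1+/- testis, and the theca genes Cylc1 and Cylc2 had log2 differences of -0.61 and -0.62. The other tested genes of the list ran from -0.73 to 0.03.

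Of 50 general regulators of actin filaments, 39 passed the filter and 1 was at least 2-fold lower, a share near the 1.96% of all tested genes. The median log2 difference was 0.02. The 1 gene was Tmod1, a tropomodulin that caps the pointed end of the filament, at 0.571 RPKM in Piwil1-/- and 2.64 RPKM in Piwil1+/- testis, and with a filter of 5 RPKM in place of 1 it was not tested and the count was 0. Tmod2, of the same family and within 2-fold on the log2 (RPKM + 1) scale, was at 5.41 RPKM in Piwil1-/- and 10.9 RPKM in Piwil1+/- testis. Cap2, which binds actin monomers, and Wdr1, a cofactor of cofilin, had log2 differences of -0.78 and -0.57. The highest were Pfn2, a profilin, at 0.44, Arpc5l, of the Arp2/3 complex, at 0.34, Cttn, cortactin, at 0.23 and Dstn, destrin, at 0.20.

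**Figure D5:**
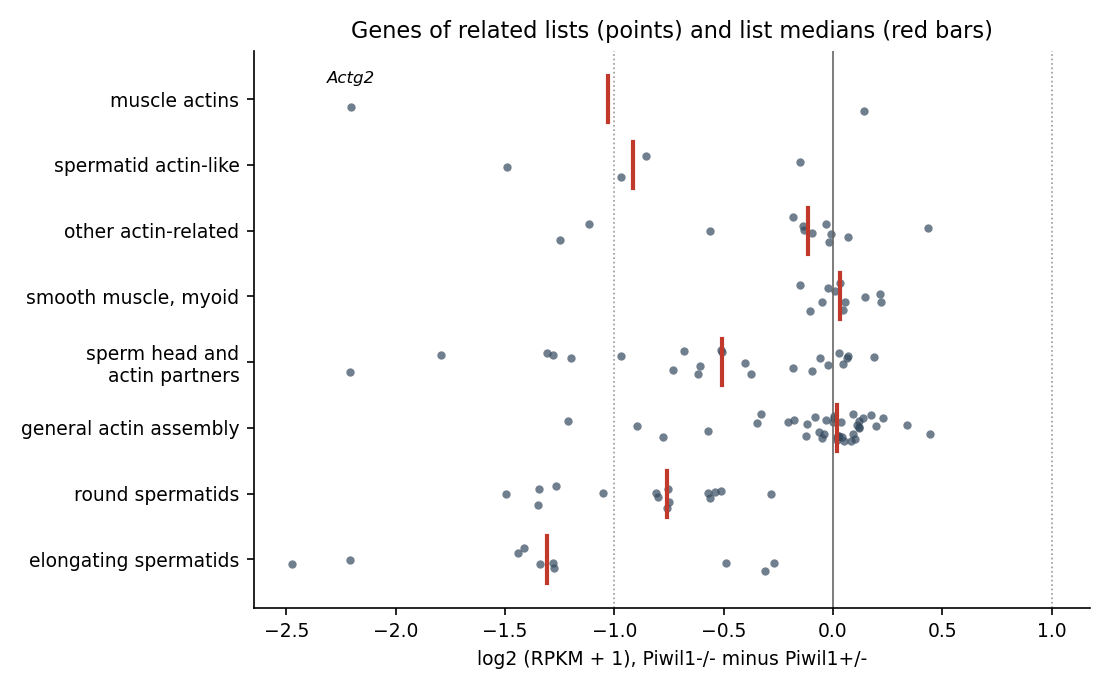
Difference in log2 (RPKM + 1), Piwil1-/- minus Piwil1+/-, of each gene that passed the level filter (points) in 8 lists, with the list medians as red bars and dotted lines at 2-fold. The smooth muscle genes lie around 0 (median 0.03), the sperm head and actin partners reach down to -2.21 (median -0.51), and the muscle actin row holds Actg2 at -2.20 and Acta2 at 0.14.

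Markers of the germ cells and other cells of the testis were read beside the members. These lists too were chosen with earlier results known, so the shares of all tested genes are given for scale only. Of 13 genes of elongating spermatids, 10 passed the filter and 7 were at least 2-fold lower, where 1.96% of all tested genes were (median log2 difference -1.31). The lowest were Cabs1, a calcium-binding protein of spermatids, at -2.47, Spem1 at -2.21, the transition protein Tnp2 at -1.44 and Akap4, of the sperm tail sheath, at -1.41. The highest were Odf2 at -0.27, Tekt4 at -0.31, Smcp at -0.49 and the protamine Prm2 at -1.28. Tnp2 was at 0.197 RPKM in Piwil1-/- and 2.25 RPKM in Piwil1+/- testis. Prm2 was listed at 0 in Piwil1-/- and was at 1.42 RPKM in Piwil1+/- testis. Prm1, Prm3 and Tnp1, the 3 that did not pass the filter, were below 1 RPKM in both libraries. Of 15 round spermatid genes, 5 were at least 2-fold lower, where 1.96% of all tested genes were, and 10 were not. The 15 genes had a median of -0.76 and a summed level of 200.3 RPKM in Piwil1-/- and 324 RPKM in Piwil1+/- testis. They ran from Spert at -1.50, Fhl5, Tssk2 and Gapdhs to Acrv1, Catsper3, Spaca1 and Crem at -0.28. Late pachytene genes had a median of -0.11 over 7 genes, from Nme5 at -0.31 to Ybx2 at 0.43. No Sertoli, Leydig or late pachytene gene that passed the filter was past 2-fold, where 1.96% of all tested genes were lower and 0.231% higher. Sertoli genes summed to 64.1 RPKM in Piwil1-/- and 54.9 RPKM in Piwil1+/- testis, Leydig genes to 140.1 in Piwil1-/- and 164 in Piwil1+/-, and endothelial genes to 4.11 in Piwil1-/- and 4.82 in Piwil1+/-. These sums take in all listed genes, while 9 of 15 Sertoli, 7 of 8 Leydig and only 1 of 6 endothelial genes passed the filter. Of 9 genes of the epididymis and its duct, whose duct wall holds smooth muscle, 7 were at 0 in both libraries. Cst8, which the testis also expresses, was at 2.86 RPKM in Piwil1-/- and 12.9 RPKM in Piwil1+/- testis, and Rnase10 was at 1.01 RPKM in Piwil1-/- and 1.83 RPKM in Piwil1+/- testis. Spem1 and Spaca1 stand both among these markers and among the sperm head genes above. The part of cell type composition in the values of the members was not tested.

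PIWIL1-bound small RNAs gave a readout apart from the genotype comparison. Only promoter windows of 300 bases, from 250 before to 50 after the start, could be searched, so the transcripts of the 10 genes were not searched here. Small RNAs of 26 to 33 nt matched the windows of the 8 matched genes exactly in 5 reads of replicate 1 and 1 read of replicate 2, or 0.608 ± 0.637 per 1000000 insert reads (SD, n = 2). All of these were sense matches in the window of Actl9. The other 7 windows had 0 reads, which allows up to 0.635 per 1000000 in replicate 1 and 0.474 in replicate 2, from 3 counts each. Of all 27025 genes with a window, 5.36% had a match. At these read numbers the members cannot be told from one another, and no control immunoprecipitation was analysed here.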

How the data were processed

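RNA-seq of Piwil1-/- and Piwil1+/- testis came as RPKM values, which the authors deposited for 22808 gene identifiers, per the file headers. STAR, Bowtie and mm10 are named in the submitters' processing notes. The counter, its annotation and its strand setting are not given in the sources that were used, and overlapping, antisense or near-identical genes may therefore share reads. Small RNAs came as read counts per distinct sequence with the adapter still present, as deposited (4836797 and 6408274 reads in replicates 1 and 2, which gave 4722785 and 6322998 insert reads).

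Samples were grouped by the genotypes and titles in the labels. Symbols matched 22444 identifiers. The members and gene lists were chosen with earlier results of these data known. Log2 differences are those of log2 (RPKM + 1), Piwil1-/- minus Piwil1+/-, among genes that reached 1 RPKM in at least 1 library.

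RPKM values were turned into whole reads. Low genes gave the ratio of the library totals, and 55 genes with RefSeq spans under 1500 bp gave the totals. For each gene the smallest length, up to 30000 bases, at which both values are whole within rounding was taken, which succeeded for 16492 of 16558 genes above 0 in both libraries (99.6%). These are the smallest numbers that fit, and fewer reads widen an interval. Where both read numbers share no factor, 79.2% of the lengths were multiples of 3, as coding lengths are. If a read was counted once for each annotated transcript, these numbers can exceed the separate reads and intervals are too narrow.

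Small RNA inserts were the bases before an exact match to the commonest 10 bases that follow a 30-nt insert. Those of 26 to 33 nt were matched exactly to RefSeq promoter windows on both strands. Named genes are the members, the other actin-related genes, genes starting within 250 kb of Actg2, the 5 nearest to it in level, and the 4 highest and 4 lowest of each list. Of the other actin-related genes and of the late pachytene, Sertoli, Leydig and endothelial lists, the text names only some of these or none. Prm1, Prm3 and Tnp1 were named after their values were seen. The recovery of totals and read numbers and the 2-fold calls were tested on simulated data. The intervals, the search of neighbouring pairs, the promoter search and the small RNA matching were not. Python 3.11.15, numpy 2.4.6, pandas 2.3.3, scipy 1.17.1 and matplotlib 3.10.9 were used.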

Additional observations from a re-analysis of the deposited data

How the results depend on the processing

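Alternatives were a pseudocount of 0.1 RPKM, no level filter, a filter of 5 RPKM, centring on the median and rescaling Piwil1-/- by a trimmed mean. With the pseudocount of 0.1 the log2 difference of Actg2 was -2.49, the members at least 2-fold lower numbered 3, Actl9 being added, and the counts over all genes were 332 lower and 68 higher. With the 5 RPKM filter 126 genes were lower, and the genes lower numbered 0 among general actin regulators, 4 among sperm head genes and 5 among elongating spermatid genes, against 1, 5 and 7. With no filter the median of the muscle actins other than Actg2 was 0, with Acta1 and Actc1 counted beside Acta2. No result past 2-fold changed sign under any of these. The median subtracted in centring was 0.0055, and the trimmed-mean rescaling shifted the Piwil1-/- values by -0.0059 in log2. Small RNA matches to the members ranged from 0.158 per 1000000 insert reads without replicate 1 to 1.06 without replicate 2. No paired analysis was possible because each genotype has 1 library. Depth limits Acta1 and Actc1, whose levels cannot be compared between the genotypes.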
